A study of Mus musculus with 9 samples.

Results

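The miR-99, miR-100 and miR-125 miRNAs were taken as every miRNA whose name began with miR-99a-, miR-99b-, miR-100-, miR-125a- or miR-125b-, on either arm of the precursor, which gave 9 of the 358 miRNAs measured in mouse epididymosomes. They comprised 5 miRNAs of the 5p arm (miR-99a-5p, miR-99b-5p, miR-100-5p, miR-125a-5p and miR-125b-5p) and 4 of the 3p arm (miR-99a-3p, miR-99b-3p, miR-125b-1-3p and miR-125b-2-3p). No miRNA named miR-100-3p or miR-125a-3p was among the 358, so their levels are not known here. Epididymosomes are small vesicles that the epididymal epithelium sheds into the duct. They were recovered on density gradients from the caput (proximal), corpus (middle) and cauda (distal) epididymis of male Swiss mice aged 8 weeks, with 3 libraries per segment and 9 in all. Each library came from the RNA of several animals combined, so that the spread between libraries is that between pools and not between individual mice. Levels are in CPM, the reads of a miRNA relative to all miRNA reads of its library, and the libraries held 1548581 to 11306605 such reads, with the caput libraries the deepest.

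The precursors of these miRNAs lie in 3 clusters, in each of which a miR-99 or miR-100 hairpin, a let-7 hairpin and a miR-125 hairpin follow one another on the same strand, an arrangement shared among vertebrates. A miRNA recognises its targets mainly through its seed, bases 2 to 8 from the 5′ end, so that miRNAs with one seed may act on overlapping sets of mRNAs. miR-125 is the vertebrate counterpart of lin-4, which together with let-7 times development in the nematode, while miR-99 and miR-100 are known as repressors of the growth-regulating kinase mTOR.

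The mature sequences below were taken from RefSeq (GRCm38.p6), which held all 9 of these miRNAs and 299 of the 358 in the table. They are shown because the seed, printed in capitals, divides the 5p miRNAs into a miR-99 group and a miR-125 group along which the measurements are ordered.
miR-99a-5p: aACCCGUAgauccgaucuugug
miR-99b-5p: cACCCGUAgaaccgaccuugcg
miR-100-5p: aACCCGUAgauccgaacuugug
miR-125a-5p: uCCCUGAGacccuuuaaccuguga
miR-125b-5p: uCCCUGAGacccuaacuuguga
No other miRNA among the 299 with a sequence carried the miR-99 seed, and the only other one with the miR-125 seed was miR-351-5p. miR-99a-5p and miR-100-5p differed at 1 base of 22, U16A, with positions counted from 1 at the 5′ end and the base of the first-named miRNA written first. Reads that covered this base poorly could have been assigned to either name, so the split between these miRNAs is less certain than their sum. miR-99b-5p differed from miR-99a-5p at 4 bases (A1C, U11A, U16C and U21C). miR-125a-5p and miR-125b-5p had their first 13 bases in common and were 24 and 22 bases long.

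The 3p miRNAs are the opposite strands of the same hairpins and are shown because the 3p strands of the miR-125b hairpins, unlike their common 5p strand, tell the hairpins apart.
miR-99a-3p: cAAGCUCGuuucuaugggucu
miR-99b-3p: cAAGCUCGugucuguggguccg
miR-125b-1-3p: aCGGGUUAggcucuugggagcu
miR-125b-2-3p: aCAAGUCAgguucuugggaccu
miR-99a-3p and miR-99b-3p shared a seed, whereas miR-125b-1-3p and miR-125b-2-3p each had a seed found in no other of the 299 sequences. A pair of 4-base motifs linked in the literature to loading of miRNAs into vesicles was looked for on the miRNA strand itself. GGAG occurred anywhere in 23 of the 299 sequences (7.69%), of which the only one in these clusters was miR-125b-1-3p, near its 3′ end. CCCU occurred in 24 (8.03%), among them miR-125a-5p and miR-125b-5p, where it lies in the seed and again behind it. A match of these letters is a description of the sequence only.

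In GRCm38 with GENCODE gene models, Mir99a lies on chromosome 16 from 77598936 to 77599000, Mirlet7c-1 from 77599657 to 77599750 and Mir125b-2 from 77646273 to 77646343, all on the plus strand in introns of the non-coding gene Mir99ahg. On chromosome 9, Mir100 lies from 41531425 to 41531504, Mirlet7a-2 from 41536716 to 41536811 and Mir125b-1 from 41581926 to 41582002, in introns of the non-coding genes 3110039I08Rik and Gm49317. Mir100 also overlaps an exon of Gm48742 on the opposite strand, Mir125b-1 an exon of the sense-intronic Gm28119, and Mir99a and Mirlet7c-1 lie opposite an intron of the protein-coding Gm11146. The third cluster is compact: on chromosome 17, Mir99b lies from 17830188 to 17830257, Mirlet7e from 17830352 to 17830444 and Mir125a from 17830812 to 17830879, within 692 bases of the protein-coding gene Spaca6. Mir99b and Mirlet7e are intronic there and Mir125a overlaps an exon. The clusters on chromosomes 16 and 9 span 47408 and 50578 bases. miR-125b-5p is made from hairpins of both of these, so its level is a sum over them, whereas miR-99b-5p and miR-125a-5p each come from chromosome 17 alone.

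The 9 miRNAs had more than 3 reads in each of the 9 libraries, and together they took 1.58% ± 0.0266 (SD, n = 3) of the miRNA reads of caput libraries, 1.47% ± 0.249 of corpus and 0.984% ± 0.0551 of cauda libraries. By mean CPM over the 9 libraries, miR-99b-5p ranked 19 among the 358 miRNAs, miR-125a-5p 31, miR-125b-5p 34, miR-100-5p 40 and miR-99a-5p 48. Of the 3p miRNAs, miR-125b-2-3p ranked 96, and the remaining 3 ranked 216 to 240.

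Scaling by library size ties each value to the few miRNAs that dominate a library, and these changed along the tract. For this reason changes are also given after TMM normalization, which scales libraries to the bulk of their miRNAs. The TMM factors differed among the caput libraries, at 0.753, 0.478 and 1.16 in replicates 1 to 3. In the corpus and cauda libraries they ran from 1.08 to 1.29. With library size scaling the median log2 change over all miRNAs tested was 0.47 from caput to corpus, 0.18 from corpus to cauda and 0.81 from caput to cauda, and after TMM normalization it was −0.09, 0.08 and 0.13. In the caput to cauda comparison, 135 miRNAs rose and 36 fell by the criterion of at least 2-fold at an adjusted p under 0.05 with library size scaling, against 87 and 71 after TMM normalization. The 3 comparisons share libraries and are not independent of one another. Sequencing of vesicle pools cannot separate fewer vesicles of one kind from less of a miRNA in each.

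The principal change in these clusters was a fall of miR-125a-5p and miR-99b-5p towards the cauda. miR-125a-5p, known for its role in blood-forming stem cells, measured 3694, 3207 and 4232 CPM in caput replicates 1 to 3. Corpus libraries held 2814, 3339 and 2680 CPM and cauda libraries 1010, 956 and 1997 CPM. Every cauda library was below every corpus and caput library, while the caput and corpus libraries overlapped. Its segment means from caput to cauda were 3711 ± 513, 2944 ± 348 and 1321 ± 586 CPM (SD, n = 3), so that the cauda spread came largely from replicate 3.

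From caput to cauda the log2 change of miR-125a-5p was −1.57 (SE 0.34, 2.96-fold lower, limma with Benjamini-Hochberg adjustment over 349 miRNAs, adjusted p = 0.0015). After TMM normalization it was −2.24 (SE 0.29, 4.73-fold lower, limma adjusted p = 0.00012). From corpus to cauda it was −1.23 (SE 0.34, 2.35-fold lower, limma adjusted p = 0.019), and after TMM normalization it was −1.33 (SE 0.29, limma adjusted p = 0.0064). With library size scaling this call was lost when single libraries were left out. The adjusted p was 0.0593 without corpus replicate 1, 0.0968 without corpus replicate 2, 0.085 without cauda replicate 1 and 0.102 without cauda replicate 2. From caput to corpus the log2 change was −0.33 (95% interval −1.05 to 0.39, limma adjusted p = 0.5). The difference between these steps was not tested. Without caput replicate 2, whose TMM factor was the lowest, the caput to cauda change was −1.67 (limma adjusted p = 0.00217).

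miR-99b-5p, the most abundant of the 9, measured 6881, 8117 and 5918 CPM in caput libraries and 7289, 6899 and 4747 CPM in corpus libraries. The cauda values were 3614, 3461 and 2853 CPM, below every library of the other segments. The segment means were 6972 ± 1102, 6312 ± 1369 and 3309 ± 402 CPM (SD, n = 3) for caput, corpus and cauda. The log2 change from caput to cauda was −1.07 (SE 0.29, 2.10-fold lower, limma adjusted p = 0.0065). This lies just past the 2-fold criterion, and it was −0.95 without caput replicate 2 and −0.97 without cauda replicate 3, which ended the call at unchanged direction. After TMM normalization it was −1.75 (SE 0.38, 3.36-fold lower, limma adjusted p = 0.0026). From corpus to cauda the log2 change of miR-99b-5p was −0.91 (SE 0.29, limma adjusted p = 0.036), which is under 2-fold. It was −1.01 after TMM normalization (limma adjusted p = 0.065), and it passed both criteria without corpus replicate 3 (−1.11, limma adjusted p = 0.0398). The change from caput to corpus was −0.16 (limma adjusted p = 0.71) with library size scaling and −0.73 (limma adjusted p = 0.16) after TMM normalization.

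**Figure D1:**
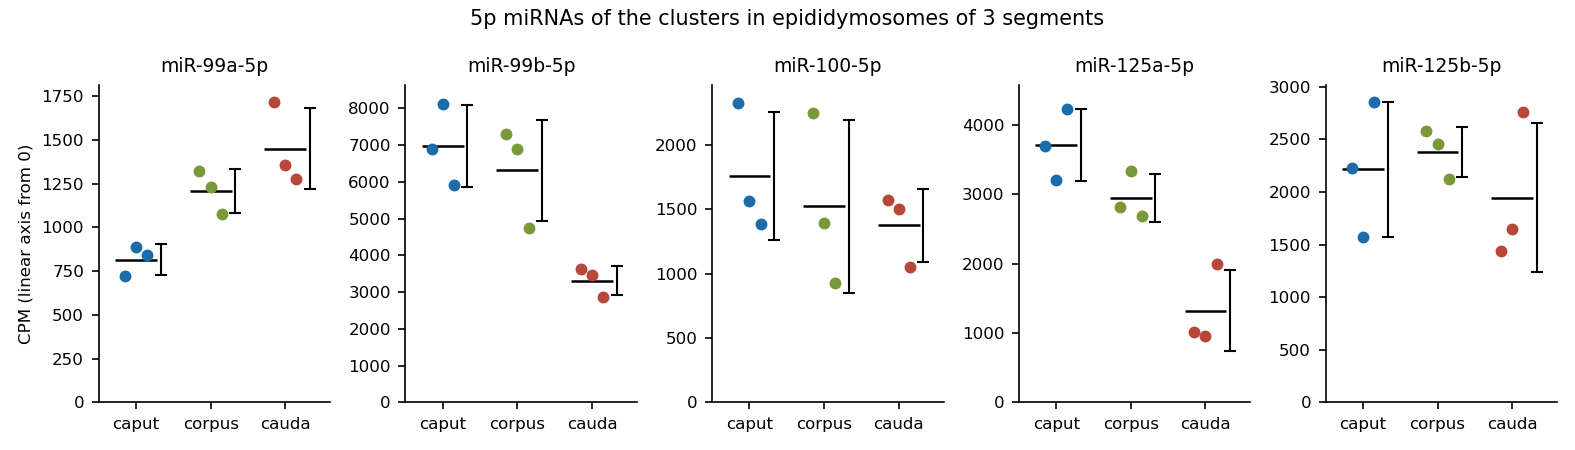
Level of each 5p miRNA in CPM (linear axis from 0) for the 3 libraries of the caput, corpus and cauda, with points for libraries, a horizontal line for the mean and a bar for 1 SD either side of it. miR-99b-5p and miR-125a-5p in the cauda lay below all other libraries, miR-99a-5p in the caput lay below all other libraries, and the 3 segments overlapped for miR-100-5p and miR-125b-5p.

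miR-99a-5p, from chromosome 16, had its lowest libraries in the caput, unlike its seed relative miR-99b-5p. Caput libraries held 720, 886 and 844 CPM, corpus libraries 1324, 1230 and 1076 CPM and cauda libraries 1717, 1357 and 1279 CPM. The caput libraries lay below all others, and the corpus and cauda libraries overlapped. Along the tract its mean was 816 ± 86.3, 1210 ± 125 and 1451 ± 234 CPM (SD, n = 3). The log2 change from caput to cauda was 0.82 (SE 0.33, 1.77-fold, limma adjusted p = 0.043), short of 2-fold, and it was 0.15 after TMM normalization (limma adjusted p = 0.71). Relative to the median of all miRNAs tested it was 0.01. From caput to corpus the change was 0.57 with library size scaling (limma adjusted p = 0.22) and −0.01 after TMM normalization.

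miR-100-5p, which has the miR-99 seed but lies on chromosome 9, was spread widely within segments. Its level was 2323, 1568 and 1383 CPM in caput libraries, 2247, 1393 and 928 CPM in corpus libraries and 1571, 1504 and 1049 CPM in cauda libraries. In each segment it fell with the replicate number. All 3 segments overlapped, and its means of 1758 ± 498, 1523 ± 669 and 1375 ± 284 CPM (SD, n = 3), which fell in that order, did not differ beyond this spread between neighbouring segments. From caput to cauda the log2 change was −0.34 (95% interval −1.15 to 0.46, limma adjusted p = 0.48), and after TMM normalization it was −1.02 (95% interval −1.96 to −0.07, limma adjusted p = 0.066). With library size scaling, neither no change nor a 2-fold fall lay outside the interval.

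miR-125b-5p, which shares its seed with miR-125a-5p, measured 2232, 1569 and 2853 CPM in caput libraries, 2580, 2453 and 2120 CPM in corpus libraries and 1438, 1645 and 2759 CPM in cauda libraries. The segments overlapped in every comparison. Its means were 2218 ± 642, 2384 ± 237 and 1947 ± 710 CPM (SD, n = 3). The log2 change from caput to cauda was −0.20 (95% interval −0.94 to 0.53, limma adjusted p = 0.64). After TMM normalization it was −0.88 (SE 0.24, 1.84-fold lower, limma adjusted p = 0.0095), which is under 2-fold.

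The 3p miRNAs were present at lower levels than the 5p strands, and limma called none of them in any comparison under either scaling, with no unadjusted p under 0.05 for library size scaling. miR-125b-2-3p, the most abundant, was at 176, 195 and 331 CPM in caput libraries, 277, 287 and 279 CPM in corpus libraries and 285, 347 and 414 CPM in cauda libraries. Its log2 change from caput to cauda was 0.62 (95% interval −0.20 to 1.43, limma adjusted p = 0.19) with library size scaling and −0.06 after TMM normalization, so that its direction depended on the scaling. miR-99a-3p lay between 13.3 and 43.6 CPM, miR-99b-3p between 16.0 and 46.2 CPM and miR-125b-1-3p between 12.9 and 33.4 CPM over the 9 libraries. Without caput replicate 3, which held 40.7 CPM of it, miR-99a-3p passed both criteria from caput to cauda (1.05, limma adjusted p = 0.0317). The levels of these 3 miRNAs rest on few reads in the shallow libraries. The lowest count was 20 reads of miR-125b-1-3p in corpus replicate 3, for which the exact 95% Poisson interval was 12.2 to 30.9 reads, or 7.89 to 19.9 CPM. Such intervals cover counting error only, since copies made by amplification cannot be told from separate molecules.

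**Figure D2:**
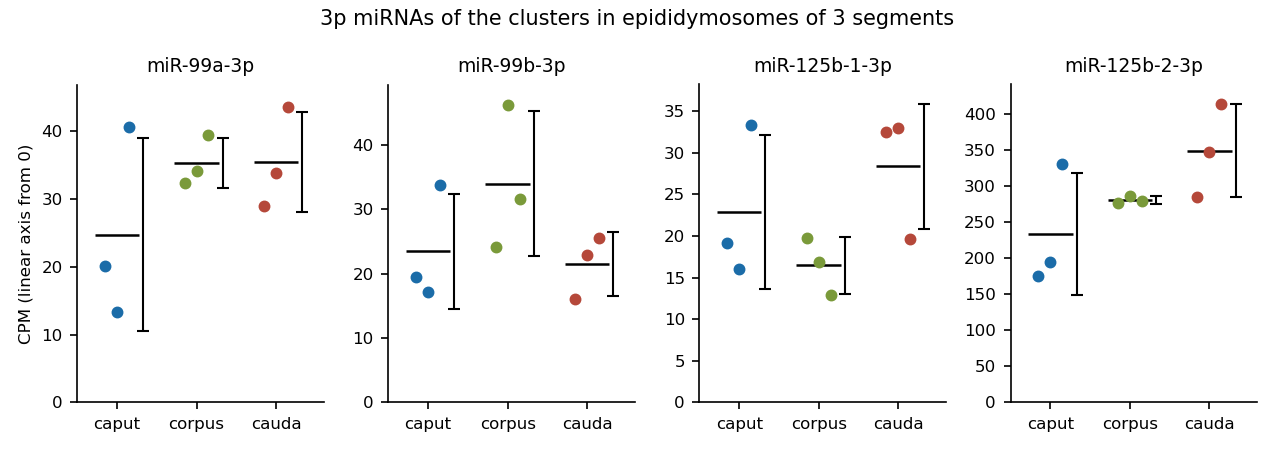
Level of each 3p miRNA in CPM (linear axis from 0) in the 3 libraries of each segment, with points for libraries, a line for the mean and a bar for 1 SD either side of it. The segments overlapped for all 4 miRNAs, and miR-125b-2-3p, at 176 to 414 CPM, was the most abundant of them in every library.

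Of the 9 miRNAs, 0 passed the criterion of at least 2-fold at an adjusted p under 0.05 from caput to corpus, where 22.4% of the 321 miRNAs tested did, 19.0% higher and 3.43% lower (limma, library size scaling). None of the 9 had an unadjusted p under 0.05 in this comparison, and limma-voom on reads recovered from the CPM values and limma after TMM normalization likewise called 0. After TMM normalization, miR-125a-5p (−0.91, limma adjusted p = 0.034) and miR-125b-1-3p (−0.95, limma adjusted p = 0.045) were lower in the corpus by less than 2-fold. From corpus to cauda 1 of the 9 was called, miR-125a-5p, against 19.0% of the 342 tested in either direction, 4.97% lower and 14.0% higher. From caput to cauda 2 of the 9 were called, both lower, against 49.0% of the 349 tested in either direction, 10.3% lower and 38.7% higher. After TMM normalization the called miRNAs were identical, at backgrounds of 28.3% (13.1% higher and 15.3% lower), 26.3% (16.4% and 9.94%) and 45.3% (24.9% and 20.3%). The median log2 change of the 9 was 0.14, −0.08 and −0.09 in the 3 comparisons, below that of all miRNAs tested, and it was −0.44, −0.18 and −0.73 after TMM normalization. Segments did not overlap for 1 of the 9 from caput to corpus, against 34.9% of the miRNAs tested, for 2 from corpus to cauda, against 46.2%, and for 3 from caput to cauda, against 54.2%.

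**Figure D3:**
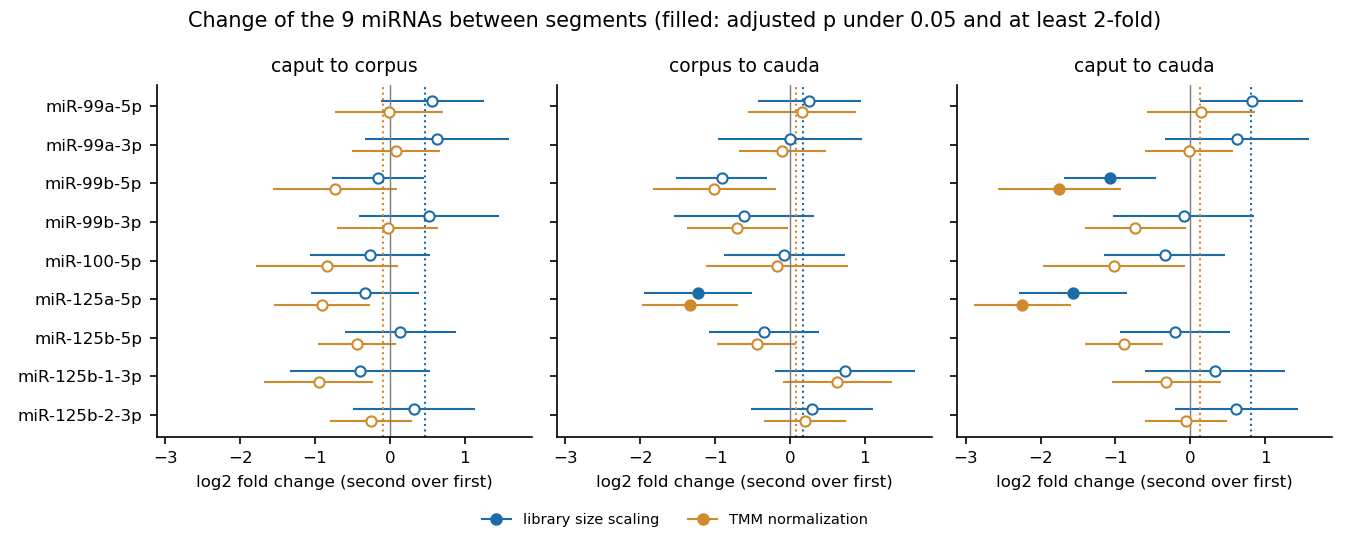
The log2 fold change of each of the 9 miRNAs between segments (horizontal axis, later over earlier segment) with its 95% interval, with library size scaling in blue and TMM normalization in orange. Filled points passed both criteria and dotted lines mark the median of all miRNAs tested. Only miR-125a-5p and miR-99b-5p have filled points, to the left of 0 under both scalings, whereas miR-99a-3p, miR-125b-1-3p and miR-125b-2-3p lie on opposite sides of 0 under the 2 scalings from caput to cauda.

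The summed level of each marker list below except that of leukocytes was higher in all cauda than in all caput libraries. These sums are in CPM, scaled to library size, and were not computed after TMM normalization. With this scaling the median log2 change of all miRNAs tested from caput to cauda was already 0.81. Of single miRNAs, 54.2% had no overlap between these segments, in either direction. The summed level of the smooth muscle list (4 of 4 miRNAs in the table, miR-143 and miR-145a) was 50115 to 88995 CPM in caput libraries, 88423 to 121412 CPM in corpus libraries and 291676 to 354786 CPM in cauda libraries. The striated muscle list (3 of 4) went from 52.5 to 184 CPM in caput libraries to 1249 to 3706 CPM in cauda libraries, the red blood cell list (4 of 5) from 223 to 848 CPM to 3019 to 4348 CPM, and the germ cell list (3 of 3) from 178 to 851 CPM to 1472 to 1826 CPM. The mesenchyme list (4 of 4) stood at 1567 to 4828 and 7773 to 11952 CPM, the leukocyte list (5 of 5) at 231 to 530 and 392 to 1601 CPM. The list for epithelium, the source of epididymosomes, comprised miR-141 and the miR-200 family (5 of 5) and stood at 20990 to 31796 CPM in caput libraries, 71973 to 84209 CPM in corpus libraries and 44552 to 61007 CPM in cauda libraries. Within the epithelium list, miR-200b-3p went the other way in mean, at 3668 ± 1567.5, 2177 ± 517 and 2425 ± 481 CPM (SD, n = 3) in caput, corpus and cauda. Other members of the lists are not given singly here, so a sum need not hold for each member. No marker in the table was at 0 in all libraries. The germ cell list held miR-34b-5p, miR-34c-5p and miR-449a-5p. Its rise cannot be read as germ cell material alone, since the authors also detected miR-34c in epididymal epithelium. For the red blood cell list, the authors perfused the vessels and detected no haemoglobin protein in the vesicle preparations by immunoblot. The source of these red blood cell markers was not tested. The part of these markers in the falls of miR-125a-5p and miR-99b-5p was not tested.

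Within a library, the ratio of one miRNA to another does not depend on how the library is scaled. Among the 5p miRNAs with the miR-99 seed, miR-99b-5p made up 72.9% ± 3.73 (SD, n = 3) of the reads from caput vesicles, 70.0% ± 2.69 from corpus and 54.1% ± 1.48 from cauda vesicles. The share of miR-99a-5p was 8.66% ± 1.57, 13.7% ± 1.99 and 23.7% ± 1.92, and that of miR-100-5p was 18.4% ± 4.46, 16.4% ± 3.78 and 22.3% ± 1.83. Within the miR-125 group, miR-125a-5p made up 63.1% ± 3.76, 55.2% ± 2.79 and 40.0% ± 2.84 along the tract. The more abundant of the miR-125 strands was therefore miR-125a-5p in all 6 caput and corpus libraries and miR-125b-5p in all 3 cauda libraries. The summed level of the miR-99 group was 9547 ± 1256, 9045 ± 2096 and 6135 ± 876 CPM (SD, n = 3), and that of the miR-125 group 5929 ± 1155, 5328 ± 499 and 3268 ± 1290 CPM.

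**Figure D4:**
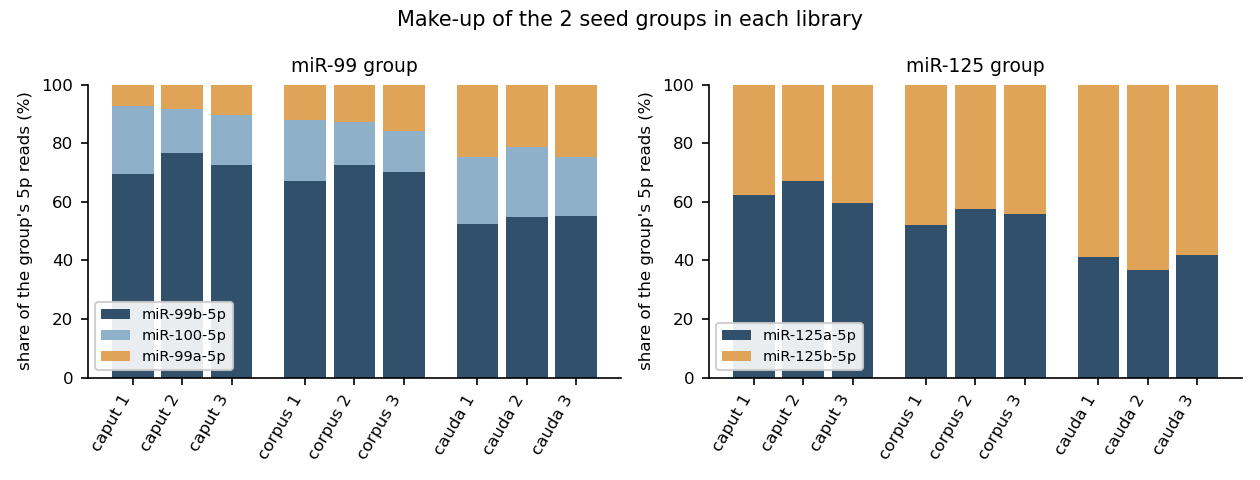
Share (%) of each 5p miRNA in the reads of its seed group, with 1 bar per library, for the miR-99 group and the miR-125 group. miR-99b-5p took 52.4% to 55.1% of its group in the cauda libraries and 67.1% to 76.8% elsewhere, and miR-125a-5p took 36.7% to 42.0% of its group in the cauda and 52.2% to 67.1% elsewhere.

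For 9 pairs, between miRNAs of one cluster or with one seed, the log2 ratio was compared over the 3 segments with an exact permutation test. It enumerates the 280 ways to divide 9 libraries into 3 groups of 3. Its statistic, the between-segment sum of squares, measures any difference among the segments and has no direction. The smallest p this test can give is 0.00357. The ratio of miR-125a-5p to miR-125b-5p was the one pair below 0.05 after Benjamini-Hochberg adjustment over the 9 (exact p = 0.00357, the smallest possible, adjusted p = 0.0321). Its log2 values were 0.73, 1.03 and 0.57 for caput, 0.13, 0.44 and 0.34 for corpus and −0.51, −0.78 and −0.47 for cauda libraries, with no overlap between any segments. Between caput and cauda the ratio fell 2.57-fold, a step that was not tested singly. Without corpus replicate 1, or without corpus replicate 3, the adjusted exact p was 0.0643, and without caput replicate 2 it was 0.0481.

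The other pairs with the same seed did not pass the adjustment. miR-99a-5p to miR-100-5p had mean log2 ratios of −1.08 ± 0.53, −0.24 ± 0.49 and 0.09 ± 0.22 (SD, n = 3) in caput, corpus and cauda (exact permutation p = 0.0429, adjusted p = 0.129). miR-99b-5p to miR-100-5p had 2.01 ± 0.41, 2.12 ± 0.37 and 1.28 ± 0.14 (exact permutation p = 0.0679, adjusted p = 0.129), and each cauda library was below each library of the other segments.

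Within the compact chromosome 17 cluster the ratio of miR-99b-5p to miR-125a-5p was 0.91 ± 0.43, 1.08 ± 0.28 and 1.40 ± 0.77 on the log2 scale (SD, n = 3, exact permutation p = 0.511, adjusted p = 0.611). No difference between segments was detected, and both miRNAs were among those lower in the cauda. The let-7 miRNA encoded between them, let-7e-5p, measured 655, 369 and 977 CPM in caput, 520, 662 and 453 CPM in corpus and 287, 546 and 431 CPM in cauda libraries. Its log2 change from caput to cauda was −0.60 (SE 0.42, limma adjusted p = 0.25), and it was −1.28 (SE 0.25, limma adjusted p = 0.0014) after TMM normalization. The ratio of let-7e-5p to miR-125a-5p went from −2.57 ± 0.51 and −2.44 ± 0.11 to −1.61 ± 0.72 (exact permutation p = 0.0714, adjusted p = 0.129), and that of miR-99b-5p to let-7e-5p gave an exact permutation p of 0.543 (adjusted p = 0.611).

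In the chromosome 16 cluster, miR-99a-5p was set against let-7c-5p, which also comes from a hairpin elsewhere. The log2 ratio was −3.75 ± 0.62, −2.93 ± 0.24 and −2.67 ± 0.24 (SD, n = 3, exact permutation p = 0.0464, adjusted p = 0.129). miR-99a-5p to miR-125b-5p, its other cluster neighbour, rose in mean from −1.40 ± 0.51 to −0.98 ± 0.02 and −0.38 ± 0.69 (exact permutation p = 0.1, adjusted p = 0.15). In the chromosome 9 cluster, the ratio of miR-100-5p to miR-125b-5p was −0.33 ± 0.62, −0.74 ± 0.50 and −0.47 ± 0.81 (exact permutation p = 0.707, adjusted p = 0.707).

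**Figure D5:**
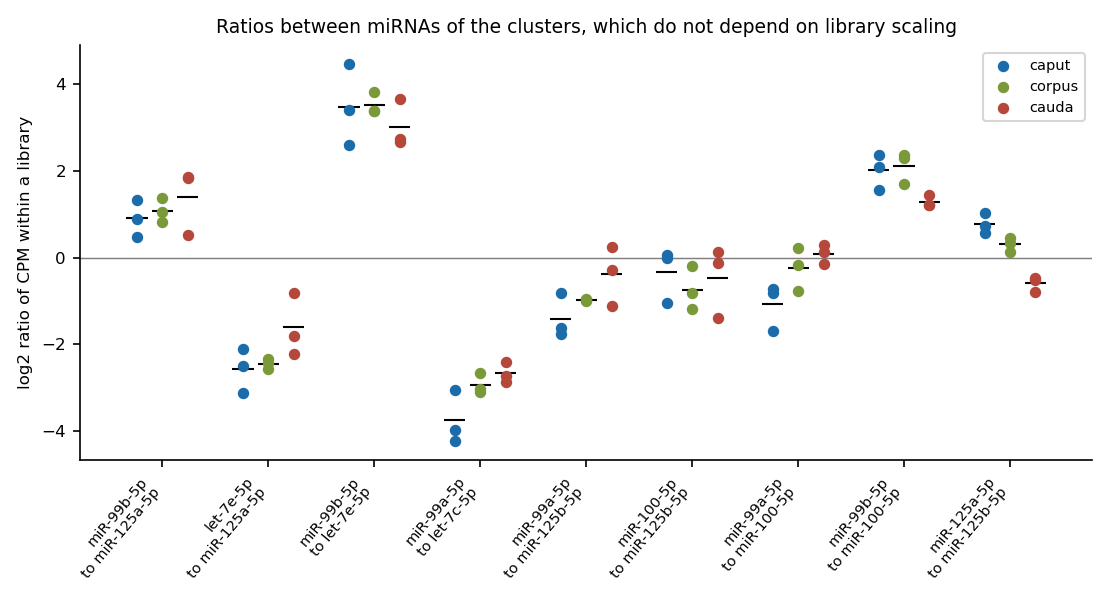
The log2 ratio of CPM within each library (vertical axis) for 9 pairs of miRNAs (horizontal axis), coloured by segment, with a point per library and a line at the mean of each segment. The segments separate without overlap for miR-125a-5p to miR-125b-5p, from 0.57 to 1.03 in the caput down to −0.78 to −0.47 in the cauda, and mix for miR-100-5p to miR-125b-5p and miR-99b-5p to miR-125a-5p.

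The strands of a hairpin were compared by the log2 ratio of 5p to 3p, tested with limma over the 64 precursors whose arms both averaged at least 10 CPM. miR-99a-5p exceeded miR-99a-3p 20.7-fold to 66.6-fold over the libraries, and miR-99b-5p exceeded miR-99b-3p 111-fold to 473-fold. Neither of these 2 precursors was called in any comparison, against a background of 1.56% of the precursors from caput to corpus, 6.25% from corpus to cauda and 15.6% from caput to cauda. For miR-99b the log2 ratio changed by −0.98 from caput to cauda (SE 0.45, limma adjusted p = 0.142, unadjusted p = 0.0487). For miR-99a the difference was 0.18 (SE 0.44, limma adjusted p = 0.815). miR-125b-5p was 8.91 ± 2.21, 8.02 ± 0.722 and 5.07 ± 1.12 times (SD, n = 3) the sum of its 3p strands in caput, corpus and cauda. miR-125b-2-3p was 8.78-fold to 21.6-fold more abundant than miR-125b-1-3p, with 10.4 ± 1.53, 17.6 ± 3.81 and 13.5 ± 6.64 (SD, n = 3) along the tract.

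Related miRNAs were examined from a list of the let-7 partners within the clusters (3 of 6 in the table) and of sequence relatives encoded elsewhere (5 of 6), namely miR-351-5p and both arms of miR-10a and miR-10b. Of the 8, 0 were called from caput to corpus, 0 from corpus to cauda and 1, miR-351-5p, from caput to cauda, against 22.4%, 19.0% and 49.0% of all miRNAs tested. After TMM normalization the counts were 0, 1 and 5, against 28.3%, 26.3% and 45.3%. With library size scaling, no unadjusted limma p of the 8 was under 0.05 from caput to corpus, while those of miR-351-5p, miR-10a-5p and miR-10b-5p were from corpus to cauda. Limma-voom called 0, 0 and 1, again miR-351-5p. miR-351-5p is a rodent miRNA with the miR-125 seed, and miR-10a-5p and miR-10b-5p, from the Hox clusters, are sequence relatives of miR-99 and miR-100 whose seed differs in its later bases.
miR-351-5p: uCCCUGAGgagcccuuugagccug
miR-10a-5p: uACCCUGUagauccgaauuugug
miR-10b-5p: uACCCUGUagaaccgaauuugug
miR-351-5p measured 203, 179 and 342 CPM in caput libraries, 155, 173 and 223 CPM in corpus libraries and 55.5, 66.4 and 137 CPM in cauda libraries. Every cauda library was below all others, as for miR-125a-5p. Its log2 change from caput to cauda was −1.53 (SE 0.44, 2.89-fold lower, limma adjusted p = 0.0095), and after TMM normalization it was −2.20 (SE 0.31, limma adjusted p = 0.00021). The log2 change of miR-10b-5p, the most abundant miRNA in the table, was −0.96 (limma adjusted p = 0.00019) and that of miR-10a-5p −0.71 (limma adjusted p = 0.0022), both under 2-fold with library size scaling. After TMM normalization both were called, at −1.64 (3.12-fold lower, limma adjusted p = 0.0022) for miR-10b-5p and −1.39 (2.62-fold lower, limma adjusted p = 0.0045) for miR-10a-5p.

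The miRNAs whose levels ran most nearly with miR-100-5p over the 9 libraries were ranked by the Pearson correlation of log2(CPM + 1) among 308 others at a mean of at least 10 CPM. Such correlations share the depth and scaling of the libraries and are given as a description. With library size scaling the first was miR-96-5p (r = 0.879), followed by miR-221-5p (0.662), miR-200b-3p (0.628) and the pair miR-669a-5p and miR-669p-5p (0.590), which had identical values. After TMM normalization miR-96-5p was again first (0.918), followed by miR-10a-5p (0.861), miR-151-5p (0.855), miR-425-3p (0.849) and miR-27b-3p (0.849). Of these 9 names only miR-96-5p was among the first 5 under both scalings. miR-96-5p stood at 153 ± 70.0, 132 ± 82.2 and 137 ± 43.0 CPM (SD, n = 3) in caput, corpus and cauda, so that its means lay closer together than the SD of any segment. Of the miRNAs in the 3 clusters, the nearest to miR-100-5p was miR-99b-5p, from the chromosome 17 cluster. Its r was 0.532 with library size scaling and 0.845 after TMM normalization. For the chromosome 9 cluster of miR-100-5p itself, r with library size scaling was 0.211 for miR-125b-1-3p, −0.096 for miR-125b-5p and −0.167 for let-7a-5p. After TMM normalization these were 0.615, 0.592 and 0.606. Among these, only miR-125b-1-3p carries the name of a hairpin in this cluster. The values for miR-125b-5p and let-7a-5p need not be those of this cluster alone.

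For miR-125a-5p, the more abundant of the miR-125 group by the mean over the 9 libraries, the nearest were miR-204-5p (r = 0.961), miR-375-3p (0.960), miR-351-5p (0.948), miR-148a-5p (0.917) and miR-148a-3p (0.913) with library size scaling. After TMM normalization they were miR-204-5p (0.972), miR-351-5p (0.968), miR-484 (0.966), miR-672-5p (0.963) and miR-375-3p (0.959). miR-204-5p, miR-375-3p and miR-351-5p were thus among the first 5 under both scalings. The caput and cauda means of miR-204-5p were 11488 ± 2618 and 366 ± 231 CPM (SD, n = 3), and those of miR-375-3p 1341 ± 235 and 80.1 ± 47.0 CPM.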

How the data were processed

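The authors sequenced epididymosome small RNA from 3 caput, 3 corpus and 3 cauda libraries, trimmed and screened the reads (cutadapt, Bowtie 1.1.1, CASAVA 1.8.2 in the submitters' notes), counted known mature miRNAs with the miRDeep2 quantifier and scaled the counts to library size. The table they deposited holds the CPM of 358 miRNAs. The genome build and miRBase release are not given in the sources used here. In each library 100% of the values were whole multiples of 1 read (within 0.02 reads), which gave the totals of 1548581 to 11306605 reads, and 3 reads were 0.265 to 1.94 CPM.

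Segments were taken from the sample titles. log2(CPM + 1) was fitted with limma 3.58 (R 4.3; lmFit, eBayes with trend) over all 358 miRNAs and 9 libraries, with Benjamini-Hochberg adjustment over those at a mean of at least 10 CPM in either segment compared. A miRNA was called at an adjusted p under 0.05 and at least 2-fold. A fold change on this scale understates that of low miRNAs. Arm and pair ratios had 0.5 CPM added. The script was tested on simulated data. All miRNAs found by the naming rule are named, with the cluster partners, the sequence relatives and the 5 miRNAs most like miR-100-5p and miR-125a-5p. The members, lists and tests were chosen with earlier results of these data known. Alternatives were TMM, median-of-ratios factors, scaling without the 3 most abundant miRNAs, limma-voom on recovered reads, other pseudocounts and filters, a replicate block and leaving out libraries. A test on raw counts was planned as a further alternative and was not run, because the table has too few low values for an independent check of the recovered reads. Figures used matplotlib 3.10, tables pandas 2.3 and numpy 2.4, permutation tests Python 3.11.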

Additional observations from a re-analysis of the deposited data

How the results depend on the processing

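miR-125a-5p from caput to cauda kept its call in every alternative run, with log2 changes of −2.29 to −1.38. The number of the 9 miRNAs called from corpus to cauda was 2 with median-of-ratios factors, which added miR-99b-5p, and 0 to 2 with a library left out: 0 without corpus replicate 1, corpus replicate 2, cauda replicate 1 or cauda replicate 2. From caput to cauda it was 1 to 3, with 1 without caput replicate 2 or cauda replicate 3 and 3 without caput replicate 3, which added miR-99a-3p (1.05). Of the pair ratios, 0 to 2 passed with a library left out, and 2 without caput replicate 2, which added miR-99a-5p to let-7c-5p. Directions of uncalled miRNAs turned with the scaling. From caput to corpus, TMM gave −0.01 for miR-99a-5p and −0.03 for miR-99b-3p; miR-125b-5p was −0.44 with TMM, −0.38 with median-of-ratios and −0.15 without the 3 most abundant miRNAs, and miR-125b-2-3p −0.25 with TMM and −0.20 with median-of-ratios. From corpus to cauda, scaling without the 3 most abundant gave 0.13 for miR-99a-3p, 0.01 with limma-voom, and 0.07 for miR-100-5p. From caput to cauda, TMM and median-of-ratios gave −0.02 and −0.06 for miR-99a-3p, −0.32 and −0.36 for miR-125b-1-3p and −0.06 and −0.10 for miR-125b-2-3p. With a library left out, caput to corpus ran from −0.27 to 0.04 for miR-99b-5p, −0.59 to 0.05 for miR-100-5p and −0.09 to 0.34 for miR-125b-5p. Corpus to cauda ran from −0.16 to 0.13 for miR-99a-3p and −0.39 to 0.25 for miR-100-5p, and caput to cauda from −0.27 to 0.19 for miR-99b-3p. The log2 ratio change from caput to cauda ran from −0.49 to 0.33 for miR-100-5p to miR-125b-5p and from −0.91 to 0.02 for miR-99b-5p to let-7e-5p. The cause of these changes was not tested. With the replicate number as a block the counts called were 0, 1 and 2, as without it, and the adjusted p of miR-99a-5p from caput to cauda was 0.0618 (limma). Libraries of one number correlated at −0.21 to 0.41 in their deviations from the segment means, and those of differing numbers at −0.45 to 0.18. The numbers were not taken to pair the libraries, but these overlapping ranges do not settle whether they do. A minimum of 50 CPM on both arms left neither miR-99 precursor to test. A count model, planned with 2 scalings, was not run, since the table holds too few low values for an independent check of the reads recovered from CPM, a limit that the limma-voom fits and the read counts share. The rarest 3p miRNAs had 20 to 58 reads in their lowest libraries.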
